A study of Homo sapiens with 12 samples.

Results

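The insulin-like growth factor (IGF) system is represented here by 10 genes chosen by name, namely the receptors IGF1R, IGF2R and INSR, the adaptors IRS1 and IRS2, and the binding proteins IGFBP2, IGFBP3, IGFBP4, IGFBP5 and IGFBP7. All 10 were found among the 22784 gene symbols with expression values, and all 10 were among the 14839 tested. RNA-seq was performed on SK-UT-1, an established human uterine leiomyosarcoma (uLMS) cell line, after 48 h in DMSO vehicle, 5 µM JQ1 or 5 µM I-BET 762. Both compounds block the acetyl-lysine pocket of the BET bromodomain proteins, which are readers of acetylated histones, and the comparison asks how the transcripts of uLMS cells change under that block. JQ1 carries a thiophene ring fused to its diazepine core, where I-BET 762 carries a benzene ring. Of 12 libraries in the labels, 10 had values: 3 DMSO, 4 JQ1 and 3 I-BET 762. DMSO replicate 16 and I-BET 762 replicate 24 were not analysed here. A single cell line stands for uLMS in every group, and nothing in the labels says whether replicates were separate cultures, so the p-values measure the spread between these libraries alone, which may be technical.

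IGF1 and IGF2 are secreted growth factors that act mainly through IGF1R, a receptor tyrosine kinase closely related to the insulin receptor INSR. The activated receptors phosphorylate IRS adaptors, which recruit PI3K and pass the signal to AKT and mTOR, while another arm runs through SHC and GRB2 to RAS. IGF2R lacks kinase activity and carries IGF2 to lysosomes, and the IGFBPs hold IGFs outside the cell and either block or prolong their action. Smooth muscle tumors, including leiomyosarcoma, are known to express components of this system.

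The binding proteins divided under treatment. With JQ1 and with I-BET 762 alike, IGFBP5, IGFBP4 and IGFBP3 fell and IGFBP2 and IGFBP7 rose. IGFBP5, which binds both IGFs and also lodges in extracellular matrix, fell 17.9-fold with JQ1 and 8.23-fold with I-BET 762. Fold changes are on the scale of log2 of the normalized read count plus 1. Among the receptors and adaptors, IRS1 fell and IGF1R rose with both inhibitors, INSR passed both limits with JQ1 but not the 1.5-fold limit with I-BET 762, and IGF2R and IRS2 were not called in either comparison. The limma test was adjusted over all tested genes (Benjamini-Hochberg), and a gene was called at an adjusted p under 0.05 if it also differed by more than 1.5-fold (0.585 on the log2 scale).

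For JQ1, 8 of the 10 members were called, 3 higher and 5 lower. Over all genes tested, 36.1% were called with JQ1, 13.3% higher and 22.8% lower. For I-BET 762, 7 of the 10 were called, 3 higher and 4 lower, against 26.9% of all genes, 8.96% higher and 17.9% lower. The 2 inhibitor comparisons share their DMSO libraries. Taken without sign, the members' log2 fold changes had a median of 1.01 under JQ1 and 0.95 under I-BET 762, against 0.43 and 0.33 over all genes. With their signs the medians were −0.38 and −0.18, against 0.0076 and −0.00063 over all genes. The members were chosen with earlier results of these data known. These counts and medians therefore describe the list and are not a test of it. When libraries were rescaled to equal totals, the median of all genes shifted by −0.18 on the log2 scale with JQ1, and the lower share of the JQ1 calls moved from 63.1% to 77.5%. Each of the 8 JQ1 calls and 7 I-BET 762 calls among the members kept its direction and its side of the threshold under that rescaling.

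To show where members that moved in each direction start, the 250 bases before the annotated start are given for IGFBP5 and IGFBP4, which fell, and for IGFBP2 and IGF1R, which rose. They were chosen with their values known and are not the 4 widest changes. The sequences are RefSeq promoters of GRCh38.p14, printed 5′ to 3′ on the strand of the gene in lower case. Capitals mark matches on either strand to 5 strings of letters known from promoters. TATAAA is the usual core of the element that places the start of transcription. CACGTG is the E-box bound by MYC and its relatives. GGGCGG is the core bound by the widely expressed factor SP1. CCAAT is bound by the nuclear factor Y complex. TGACTCA is the usual site of JUN and FOS dimers. The windows are chr2:216695550-216695799 on the minus strand for IGFBP5, chr17:40443200-40443449 on the plus strand for IGFBP4, chr2:216632578-216632827 on the plus strand for IGFBP2 and chr15:98648289-98648538 on the plus strand for IGF1R. Of the 3 RefSeq starts of IGFBP2, the outermost is shown.
IGFBP5: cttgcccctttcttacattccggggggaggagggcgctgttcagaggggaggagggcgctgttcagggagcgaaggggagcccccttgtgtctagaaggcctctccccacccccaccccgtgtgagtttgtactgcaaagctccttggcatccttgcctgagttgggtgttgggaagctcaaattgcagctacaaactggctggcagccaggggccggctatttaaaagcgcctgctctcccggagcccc
IGFBP4: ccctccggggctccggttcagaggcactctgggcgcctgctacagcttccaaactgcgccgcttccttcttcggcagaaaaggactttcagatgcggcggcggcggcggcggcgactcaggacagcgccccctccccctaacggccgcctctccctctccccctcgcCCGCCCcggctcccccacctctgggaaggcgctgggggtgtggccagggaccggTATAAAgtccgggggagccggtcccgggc
IGFBP2: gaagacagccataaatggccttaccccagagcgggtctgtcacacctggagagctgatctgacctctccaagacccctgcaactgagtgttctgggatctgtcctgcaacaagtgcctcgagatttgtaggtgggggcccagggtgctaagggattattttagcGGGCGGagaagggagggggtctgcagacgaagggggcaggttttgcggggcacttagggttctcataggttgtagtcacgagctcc
IGF1R: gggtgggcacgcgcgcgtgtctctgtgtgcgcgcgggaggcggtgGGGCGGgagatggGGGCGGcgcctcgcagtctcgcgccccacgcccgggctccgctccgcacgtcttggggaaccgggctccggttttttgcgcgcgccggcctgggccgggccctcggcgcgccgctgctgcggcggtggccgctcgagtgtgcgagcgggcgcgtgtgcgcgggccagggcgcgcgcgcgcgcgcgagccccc
None of the 5 letter strings occurred in the IGFBP5 window, which was 61.2% G and C. Only exact strings were searched, so similar letters, such as tatttaaa near the end of this window, were not counted. The IGFBP4 window, 71.6% G and C, held 1 TATAAA and 1 GGGCGG match. The IGFBP2 window held 1 GGGCGG match at 56.8% G and C, and the IGF1R window held 2 GGGCGG matches at 81.2% G and C. The IGFBP2 windows not shown differed. The window of the start 592 bases from the Gencode start was 69.2% G and C, with 1 GGGCGG match. The window of the start 26739 bases away was 56.4% G and C, with 1 CCAAT match. Among 35116 RefSeq promoter windows of this length, 10.7% held TATAAA, 6.34% CACGTG, 42.6% GGGCGG, 32.0% CCAAT and 4.20% TGACTCA. Among the other members, IGF2R held 3 CACGTG and 6 GGGCGG matches, INSR and IRS1 held 4 GGGCGG matches each, and IRS2 held 5 GGGCGG and 2 CCAAT matches. The IGFBP3 window, whose RefSeq start lies 602 bases from the Gencode start, held 2 GGGCGG matches. A match describes the letters only.

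Reads on genes ranged from 35564586 to 39658989 per library, and a count of 0 allows up to 3 reads, or 2.73 to 3.30 normalized counts; this floor covers counting error only. HEXIM1, a gene known to rise under BET inhibition, had 1601 to 1641 normalized counts with DMSO, 4451 to 4898 with JQ1 and 3251 to 3528 with I-BET 762. The smooth muscle markers differed widely in level. In DMSO libraries TPM2 had 15605 to 17031 normalized counts, CALD1 9017 to 9738, ACTA2 6899 to 7326, SMTN 2132 to 2573 and TAGLN 1565 to 1651. MYLK was lower at 382 to 422, DES at 187 to 188, LMOD1 at 151 to 168 and CNN1 at 84.3 to 110. MYH11 had no row, and the hormone receptors ESR1 and PGR stayed at or below 4.35. Of the 9 smooth muscle markers tested, 7 were called lower with each inhibitor, against 22.8% of all genes with JQ1 and 17.9% with I-BET 762. The summed normalized count of the 9 went from 36527 to 38431 with DMSO to 22897 to 23150 with JQ1 and 23230 to 23692 with I-BET 762. The 5 epithelial markers (EPCAM, CDH1, KRT8, KRT18 and KRT19) summed to 1212 to 1271, 511 to 602 and 497 to 544 in the same order, with KRT19 at 740 to 742 in DMSO libraries. The 3 endothelial markers summed to at most 7.40 in any library. Of the leukocyte list, PTPRC was at most 0.984 and LYZ at most 3.04, and CD14 held the rest of a sum that reached 37.5. The part of these marker shifts in the results below was not tested. In bulk RNA, fewer cells that express a gene and less RNA per cell cannot be told apart.

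**Figure D1:**
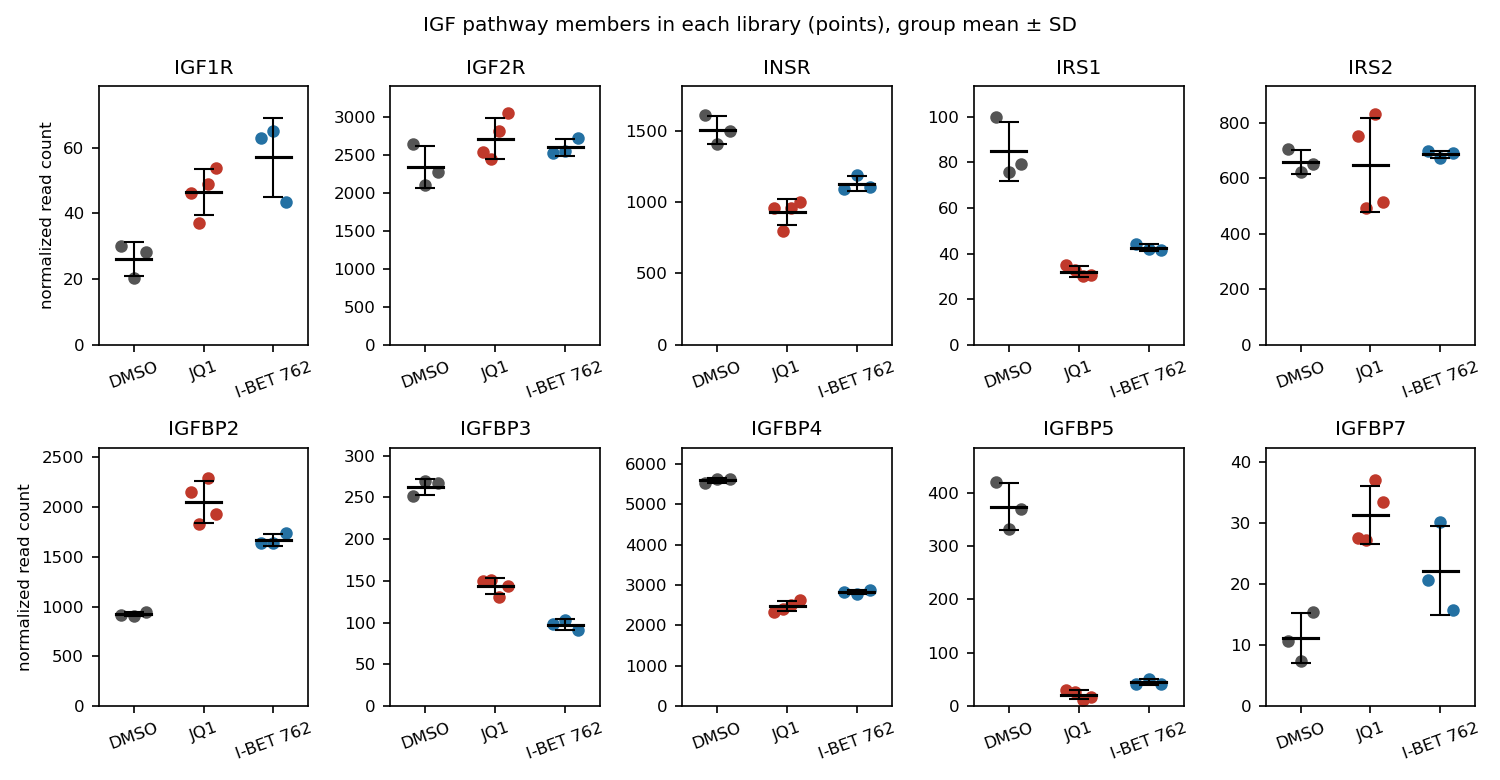
Normalized read count (y axis, from 0) of each of the 10 members in every library, by treatment (x axis). Points are libraries, and bars are the group mean ± SD (DMSO n = 3, JQ1 n = 4, I-BET 762 n = 3). The treated libraries lie apart from DMSO in 8 of the 10 panels and overlap it for IGF2R and IRS2.

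IGF1R (chromosome 15, 98648539 to 98964530, plus strand, hg38) was the least abundant member per length in DMSO. It had 30.0, 20.3 and 28.2 normalized counts with DMSO, 46.2, 37.0, 49.0 and 53.8 with JQ1, and 63.0, 65.2 and 43.3 with I-BET 762. Every treated library lay above every DMSO library. The log2 fold change was 0.81 (SE 0.22, adjusted p = 0.00325) with JQ1 and 1.09 (SE 0.23, adjusted p = 0.000702) with I-BET 762. These values rest on 22 to 65 reads per library, and the added 1 in the log2 scale understates the change of a gene this low.

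INSR (chromosome 19, 7112255 to 7294414, minus strand) was far more abundant. Its normalized counts were 1612, 1410 and 1502 with DMSO, 961, 800, 961 and 1003 with JQ1, and 1094, 1189 and 1108 with I-BET 762. The 3 groups did not overlap, with JQ1 lowest. INSR fell by 0.70 on the log2 scale with JQ1 (SE 0.076, adjusted p = 5.31e-07), while the log2 fold change of −0.41 with I-BET 762 (SE 0.081, adjusted p = 0.000369) was below the 1.5-fold limit.

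IGF2R (chromosome 6, 159969082 to 160113507, plus strand) had 2645, 2099 and 2268 normalized counts with DMSO, 2531, 2449, 2817 and 3046 with JQ1, and 2519, 2549 and 2719 with I-BET 762. DMSO replicate 13 overlapped the treated libraries. The log2 fold change was 0.22 with JQ1 (95% interval 0.044 to 0.39, adjusted p = 0.0253) and 0.16 with I-BET 762 (95% interval −0.026 to 0.34, adjusted p = 0.126), both under the 1.5-fold limit. In the annotation IGF2R shares 571 exonic bases with the pseudogene CHP1P2 on the same strand, which had no row. How reads there were counted is not given in the sources used here.

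IRS1 (chromosome 2, 226731312 to 226799820, minus strand), a docking adaptor of both kinase receptors, fell. It had 99.8, 75.8 and 79.2 normalized counts with DMSO, 35.2, 32.6, 30.0 and 30.4 with JQ1, and 44.3, 42.1 and 41.3 with I-BET 762. The 3 groups were separate, again with JQ1 lowest. IRS1 was 2.58-fold lower with JQ1 (log2 fold change −1.37, SE 0.17, adjusted p = 2.38e-06) and 1.96-fold lower with I-BET 762 (log2 fold change −0.97, SE 0.18, adjusted p = 0.000250).

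IRS2 (chromosome 13, 109752695 to 109786583, minus strand), the other widely expressed adaptor, did not follow IRS1. Its normalized counts were 706, 620 and 652 with DMSO, 752, 492, 829 and 512 with JQ1, and 697, 673 and 689 with I-BET 762. The JQ1 libraries were scattered around the other groups, with replicates 17 and 19 above and replicates 18 and 20 below every DMSO and I-BET 762 library. Their log2 SD was 0.38, and of 1677 genes within 0.5 log2 units of its level, 1.25% had an SD as large among the JQ1 libraries. The log2 fold change was −0.065 with JQ1 (95% interval −0.37 to 0.24, adjusted p = 0.699) and 0.059 with I-BET 762 (95% interval −0.27 to 0.38, adjusted p = 0.755). The model shares its estimate of spread over all groups, so the I-BET 762 interval also carries the JQ1 scatter. The log2 SD of IRS2 was 0.094 with DMSO and 0.026 with I-BET 762. Without JQ1 replicate 18 the JQ1 value was 0.054, and without replicate 20 it was 0.034. In Gencode IRS2 shares 115 exonic bases with a long noncoding RNA gene on the opposite strand, which had no row.

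**Figure D2:**
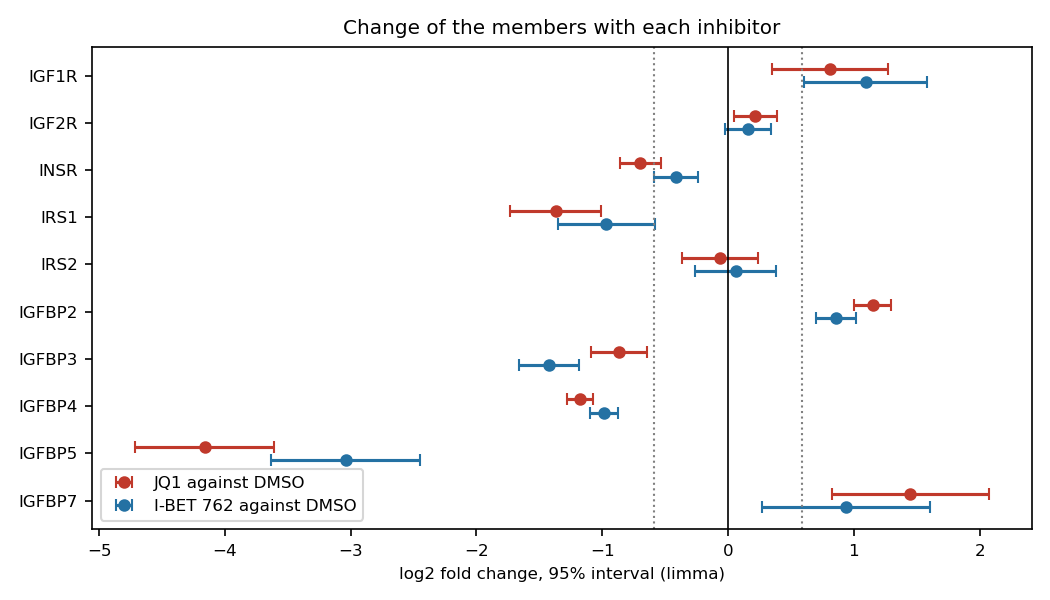
Log2 fold change against DMSO (x axis) of each member (y axis) with JQ1 and I-BET 762, from one limma model. Points are estimates, bars are 95% intervals, and dotted lines mark the 1.5-fold limit; IGFBP5 lies farthest from 0, at −4.16 and −3.04, and the IGF2R and IRS2 intervals lie within the limit.

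IGFBP5 (chromosome 2, 216672105 to 216695549, minus strand) showed the widest change of the 10 members. It had 420, 332 and 370 normalized counts with DMSO, 29.7, 27.2, 11.0 and 17.2 with JQ1, and 41.3, 51.1 and 41.3 with I-BET 762. The 3 groups did not overlap, and the highest treated library held 51.1 against 332 in the lowest DMSO library. The log2 fold change was −4.16 (SE 0.26, adjusted p = 7.78e-10) with JQ1 and −3.04 (SE 0.28, adjusted p = 1.41e-07) with I-BET 762. Ordered from the lowest log2 fold change, IGFBP5 was number 35 of the 14839 genes with JQ1 and number 101 with I-BET 762. In Gencode it shares 487 exonic bases with DIRC3-AS1 on the opposite strand, which had no row.

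IGFBP4 (chromosome 17, 40443450 to 40457725, plus strand), a binding protein mostly described as an inhibitor of IGF action, was the most abundant member in DMSO. Its normalized counts were 5514, 5630 and 5625 with DMSO, 2342, 2410, 2511 and 2632 with JQ1, and 2831, 2767 and 2863 with I-BET 762. The 3 groups did not overlap, with JQ1 lowest, and the DMSO libraries lay close together. IGFBP4 was 2.26-fold lower with JQ1 (log2 fold change −1.18, SE 0.048, adjusted p = 4.85e-12) and 1.98-fold lower with I-BET 762 (log2 fold change −0.99, SE 0.051, adjusted p = 2.49e-10).

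IGFBP3 (chromosome 7, 45912245 to 45921874, minus strand), the main IGF carrier of plasma, fell further with I-BET 762 than with JQ1. It had 252, 270 and 267 normalized counts with DMSO, 149, 151, 130 and 144 with JQ1, and 98.4, 103 and 90.6 with I-BET 762. The 3 groups were separate, with I-BET 762 lowest. The log2 fold change was −0.87 (SE 0.11, adjusted p = 1.91e-06) with JQ1 and −1.42 (SE 0.11, adjusted p = 2.95e-08) with I-BET 762.

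IGFBP2 (chromosome 2, 216632828 to 216664436, plus strand), a binding protein often raised in tumors, rose. Its normalized counts were 913, 907 and 945 with DMSO, 2155, 1830, 2294 and 1930 with JQ1, and 1636, 1642 and 1740 with I-BET 762. The 3 groups did not overlap, with JQ1 highest. IGFBP2 was 2.22-fold higher with JQ1 (log2 fold change 1.15, SE 0.069, adjusted p = 4.93e-10) and 1.81-fold higher with I-BET 762 (log2 fold change 0.86, SE 0.074, adjusted p = 7.28e-08).

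IGFBP7 (chromosome 4, 57030773 to 57110385, minus strand), a low-affinity relative that also acts apart from IGFs, was scarce. It had 10.7, 7.40 and 15.5 normalized counts with DMSO, 27.5, 27.2, 37.0 and 33.5 with JQ1, and 20.7, 30.1 and 15.8 with I-BET 762. All treated libraries were above DMSO, but the lowest I-BET 762 library exceeded the highest DMSO library by less than 1 normalized count. The log2 fold change was 1.45 (SE 0.29, adjusted p = 0.000364) with JQ1 and 0.94 (SE 0.32, adjusted p = 0.0174) with I-BET 762. On its DMSO libraries alone IGFBP7 would not have passed the filter on low values, which asked for 10 normalized counts in 3 libraries, so its rise is partly a condition of being tested. The I-BET 762 call was lost without DMSO replicate 14 (log2 fold change 0.69, adjusted p = 0.0872) and without I-BET 762 replicate 22 (0.70, adjusted p = 0.0967). IGFBP7 shares 260 exonic bases with POLR2B, an RNA polymerase II subunit gene on the opposite strand, at 12280 to 20518 normalized counts. IGFBP7 amounted to 0.0539% to 0.216% of POLR2B in the same library. POLR2B itself had log2 fold changes of 0.45 and 0.28, neither called. The strand setting of the counting is not given in the sources used here, and the part of POLR2B reads in the IGFBP7 values was not tested.

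JQ1 and I-BET 762 were then compared directly at the same dose and time, over the 10 members. Of all genes, 5.31% were called, 1.73% higher with JQ1 and 3.59% lower. Only IGFBP5 was called among the members, 2.18-fold lower with JQ1 than with I-BET 762 (log2 difference −1.12, 95% interval −1.67 to −0.57, adjusted p = 0.00508). The IGFBP5 difference ran from −1.31 to −0.86 over the libraries left out in turn. IGFBP3 was 1.47-fold higher with JQ1 (log2 difference 0.56, 95% interval 0.33 to 0.78, adjusted p = 0.00127), just under the 1.5-fold limit. Without JQ1 replicate 19 or I-BET 762 replicate 22, its log2 difference was 0.60 and was called. IGFBP2 (0.29, adjusted p = 0.00609), INSR (−0.28, adjusted p = 0.0118) and IGFBP4 (−0.19, adjusted p = 0.00818) also had an adjusted p under 0.05 at smaller sizes. For the remaining 5 members the adjusted p missed 0.05, which does not show that the compounds act alike. The 95% interval of the log2 difference was −0.74 to 0.18 for IGF1R, −0.11 to 0.23 for IGF2R, −0.76 to −0.039 for IRS1 before adjustment, −0.43 to 0.18 for IRS2 and −0.11 to 1.14 for IGFBP7. Rescaling to equal totals moved the lower share of all direct calls from 67.5% to 82.0%.

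Levels of different genes were set side by side as normalized counts per kb of exon. In DMSO, IGFBP4 stood first at 2535 ± 29.8 (SD, n = 3), above 96.7% of the genes that could be ranked. IGFBP2 followed at 194 ± 4.25, then INSR at 139 ± 9.33, IGF2R at 103 ± 12.4 and IRS2 at 80.8 ± 5.32, each apart from its neighbor in the order. IGFBP5 (57.9 ± 6.86) and IGFBP3 (57.5 ± 2.11) overlapped, as did IRS1 (8.48 ± 1.29) and IGFBP7 (5.79 ± 2.10). IGF1R was last at 1.88 ± 0.369, above 2.19% of ranked genes.

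With the inhibitors IGFBP5 went from the sixth place to the ninth with JQ1 (3.29 ± 1.35, n = 4) and the eighth with I-BET 762 (6.90 ± 0.875, n = 3), and IGFBP7 went from the ninth place to the seventh with both. With JQ1, IGFBP5 overlapped both IGF1R (3.33 ± 0.506) and IRS1 (3.20 ± 0.236). The IGFBP2 level rose to 433 ± 44.4 and 353 ± 12.3 per kb while IGFBP4 went to 1122 ± 57.3 and 1279 ± 22.1. Lengths matter here: when the canonical transcript replaced the union of exons, a choice made after the data were seen, IGFBP2 stood at 652 per kb in DMSO, still below IGFBP4, and at 1451 with JQ1, above IGFBP4. IGF2R and INSR also changed places in DMSO with that length, at 166 and 159 per kb.

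**Figure D3:**
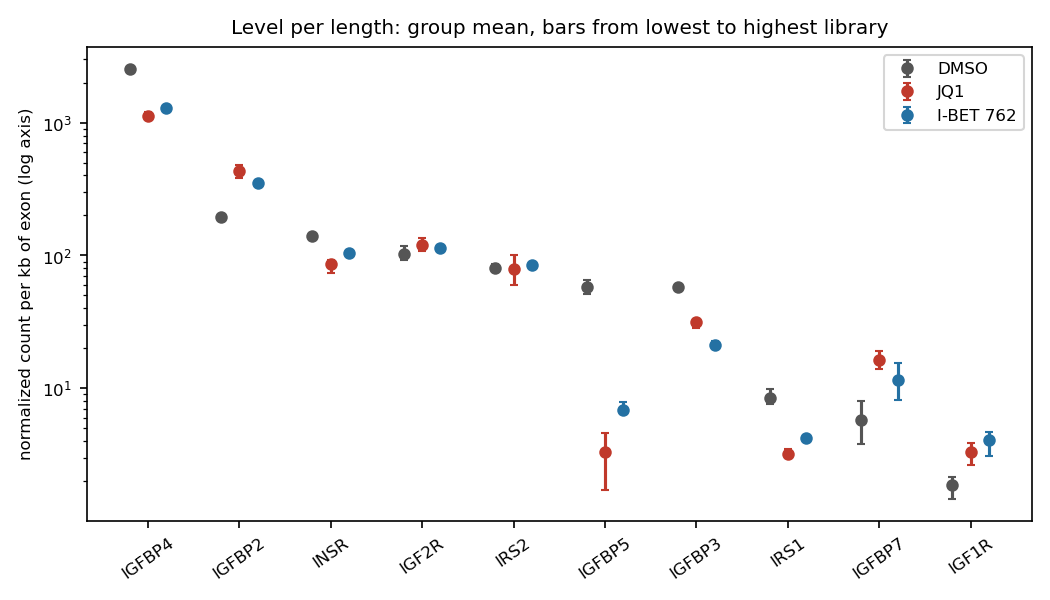
Normalized count per kb of exon (log y axis) of the members, ordered by their DMSO level (x axis). Points are group means and bars run from the lowest to the highest library; IGFBP4 is highest in all groups, and IGFBP5 moves from 57.9 in DMSO to 3.29 with JQ1 and 6.90 with I-BET 762.

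Summed over the 5 binding proteins among the members, the level per kb was 2819 to 2874 in DMSO libraries, 1530 to 1672 with JQ1 and 1647 to 1700 with I-BET 762. IGFBP4 made up 88.7% to 89.3% of the sum in DMSO libraries, 67.7% to 72.2% with JQ1 and 76.2% to 77.0% with I-BET 762. The IGFBP2 share went from 6.69% to 6.93% in DMSO libraries to 24.6% to 29.0% and 20.7% to 21.6%. IGFBP5 went from 1.80% to 2.31% of the sum to at most 0.293% with JQ1 and 0.480% with I-BET 762. The sum of these 5 was lower in every treated library than in any DMSO library. It leaves out IGFBP6, which is not a member and exceeded IGFBP4. With IGFBP6 added, a sum computed after the data were seen, the level per kb was 8007 to 8018 in DMSO libraries, 7163 to 8438 with JQ1 and 6191 to 6506 with I-BET 762, so that JQ1 overlapped DMSO. IGFBP4 then made up 31.2% to 31.9%, 12.9% to 15.5% and 19.4% to 21.0% of the sum in the same order, and IGFBP6 64.1% to 64.8%, 78.6% to 81.0% and 72.5% to 74.5%. These shares use the union of exons and would differ with other lengths.

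IGFBP2 and IGFBP5 are neighbors on chromosome 2, 7.67 kb apart on opposite strands, and moved in opposite directions with both inhibitors. For every member, the nearest tested gene on each side was examined. Calls were frequent in these data, since JQ1 changed 36.1% of the tested genes and I-BET 762 changed 26.9%. A called gene beside a member is therefore not unusual in itself. Whether neighbors change more often than other genes, or together with the member, was not tested. Beside IGFBP5, IGFBP3 and IGFBP4, all of which fell, the nearest tested gene at higher coordinates was a tensin gene. TNS1, 1104 kb from IGFBP5, had 360 mean normalized counts with DMSO, 53.0 with JQ1 and 127 with I-BET 762 (log2 fold changes −2.75 and −1.50). TNS3, 1353 kb from IGFBP3, had 5463, 818 and 1930 (log2 fold changes −2.74 and −1.50). TNS4, 18.1 kb from IGFBP4, had 19.3 with DMSO and at most 3 reads in every treated library. All 3 tensin genes were called lower with both inhibitors, but TNS4 passed the filter on low values only through its DMSO libraries, so its fall was a condition of being tested.

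The neighbors of IGF1R moved in the same direction as IGF1R. ARRDC4, an arrestin-related gene 675 kb away, had log2 fold changes of 2.35 and 1.51, and SYNM, the intermediate filament gene synemin 134 kb away, had 1.41 and 1.23, all called higher. COL4A1, a collagen IV gene 362 kb from IRS2, was called lower (−1.18 and −1.02) where IRS2 was not called. DOCK10, 1689 kb from IRS1, was called lower with JQ1 (−1.64, adjusted p = 0.0135) but not with I-BET 762 (−0.90, adjusted p = 0.197). Its mean normalized counts were 11.4 with DMSO, 3.15 with JQ1 and 6.31 with I-BET 762. DOCK10 could not have passed the filter on low values without DMSO libraries, so its fall was partly a condition of being tested. TOP2A, 25.6 kb on the other side of IGFBP4, had −0.42 and −0.28 and was not called. The remaining neighbors were called with neither inhibitor: MRPL18 and MAP3K4 beside IGF2R, ZNF557 and ARHGEF18 beside INSR, RHBDD1 beside IRS1, ABHD13 beside IRS2, RPL37A beside IGFBP2, SEPTIN7P2 beside IGFBP3, and RNU6-998P and RPL6P10 beside IGFBP7. The largest of their log2 fold changes were 0.53 for ZNF557 with JQ1 and 0.43 for RNU6-998P with I-BET 762.

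**Figure D4:**
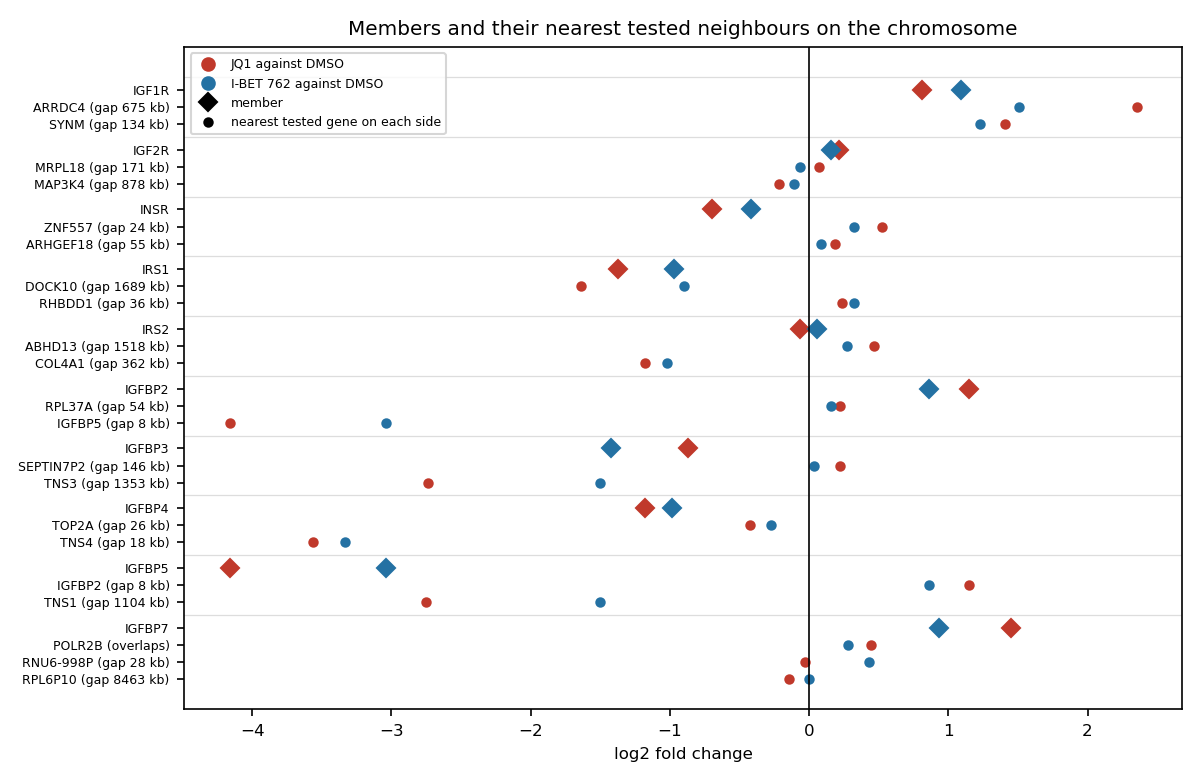
Log2 fold change against DMSO (x axis) of each member (diamonds) and of its nearest tested genes (circles), listed below it on the y axis with the distance in kb. JQ1 and I-BET 762 are separate colors; TNS1, TNS3 and TNS4 lie between −3.56 and −1.50, and ARRDC4 and SYNM between 1.23 and 2.35.

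The rest of the pathway was examined with 70 further genes, of which 59 were tested. JQ1 changed 15 of them, 6 higher and 9 lower (25.4%, against 36.1% of all genes), and I-BET 762 changed 10, 4 higher and 6 lower (16.9%, against 26.9%). Taken without sign, their log2 fold changes had a median of 0.33 under JQ1 and 0.23 under I-BET 762, below the 0.43 and 0.33 of all genes. In the direct comparison limma called 0 of the 59, against 5.31% of all genes. An adjusted p under 0.05 was given to 18 of the 59, against 4047 of all 14839 genes.

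Ligand transcripts were scarce. IGF1 had at most 1 read in any library, and INS had no row. IGF2, the fetal growth factor, had 21.8 to 46.5 normalized counts with DMSO, 13.0 to 22.0 with JQ1 and 4.92 to 20.1 with I-BET 762. The highest JQ1 library was level with the lowest DMSO library (log2 fold change −0.70, adjusted p = 0.127), and IGF2 was called lower with I-BET 762 (−1.30, SE 0.43, adjusted p = 0.0148). With 1 library left out in turn, the JQ1 value ran from −0.93 to −0.40, and it was called lower without I-BET 762 replicate 23 (adjusted p = 0.0484). The I-BET 762 call was lost without DMSO replicate 13 (−1.003, adjusted p = 0.0831) and without I-BET 762 replicate 23 (−0.75, adjusted p = 0.0901).

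Of the other binding proteins, IGFBP6, which prefers IGF2, was more abundant than any member, with 6910 to 6998 normalized counts in DMSO libraries and a level per kb above 98.7% of ranked genes. It was not called (0.28 with JQ1, adjusted p = 0.000499, and −0.13 with I-BET 762, adjusted p = 0.0828). IGFBP1 had at most 1 read and IGFALS, the acid-labile subunit, at most 3. Of the 2 relatives tested, IGFBPL1 rose (0.79 and 0.95) and KAZALD1 fell (−1.01 and −0.97) with both inhibitors.

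The proteases that cut binding proteins were low or moderate. PAPPA, the protease of IGFBP4 and IGFBP5, had at most 4 reads and PAPPA2 at most 1. STC2, a stanniocalcin that inhibits PAPPA, fell from 239 to 285 normalized counts in DMSO libraries to 79.4 to 106 with JQ1 and 57.1 to 71.8 with I-BET 762 (log2 fold changes −1.54 and −2.08, adjusted p = 4.99e-08 and 8.13e-09). Its relative STC1 was called lower with JQ1 (−0.71) and not with I-BET 762 (−0.22, adjusted p = 0.211). HTRA1, a secreted serine protease, was called higher with JQ1 (0.65), and with I-BET 762 it had 0.53, under the 1.5-fold limit. The JQ1 call of HTRA1 was lost at equal totals (0.47).

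Among 9 tested receptor and adaptor genes outside the members, 2 were called with JQ1, both lower (22.2%, against 36.1% of all genes). With I-BET 762, 0 were called, against 26.9% of all genes. For 4 of the 9, limma gave an adjusted p under 0.05, against 9073 of all 14839 genes. GRB10, an adaptor that restrains both kinase receptors, had −0.62 with JQ1 and −0.57 with I-BET 762. GAB1, a docking protein, had −0.80 and −0.50. The JQ1 call of GRB10 was lost without DMSO replicate 13 (−0.57) and without JQ1 replicate 18 (−0.56). With I-BET 762, GRB10 was called lower at equal totals (−0.66), at equal upper quartiles (−0.60) and without DMSO replicate 15 (−0.60), and GAB1 at equal totals (−0.59). INSRR had at most 12 reads, IRS4 at most 2, GRB7 at most 6 and GRB14 at most 1.

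All 9 phosphatase genes were tested. JQ1 changed 4 (44.4%, against 36.1% of all genes) and I-BET 762 changed 3 (33.3%, against 26.9%), shares not far from those of all genes. PTPRF (LAR), a receptor phosphatase that acts on the insulin receptor, fell (−1.21 and −0.67), as did INPPL1 (SHIP2), a lipid phosphatase (−1.10 and −0.71). INPP4B, another lipid phosphatase, fell with JQ1 (−1.12) and had −0.48 with I-BET 762 (adjusted p = 0.104). PHLPP2, a phosphatase of AKT, rose with both (0.69 and 0.64), although not past the 1.5-fold limit after rescaling to equal totals (0.50 and 0.55).

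None of the 6 PI3K subunit genes was called with either inhibitor, against 36.1% of all genes with JQ1 and 26.9% with I-BET 762. For 2 of the 6, limma gave an adjusted p under 0.05 with each inhibitor. Of all 14839 genes, 10633 had such a p with JQ1 and 9073 with I-BET 762. Of 16 tested AKT and mTOR genes, JQ1 raised PDPK1 (0.66), the kinase that activates AKT, and EIF4EBP2 (0.84), a translation repressor held off by mTOR. I-BET 762 raised EIF4EBP2 (0.65), and PDPK1 had 0.54. After rescaling to equal totals, PDPK1 with JQ1 (0.48) and EIF4EBP2 with I-BET 762 (0.55) were under the limit. Of 7 genes whose products AKT phosphorylates, FOXO1, a transcription factor that AKT keeps out of the nucleus, rose (1.12 and 1.03), and BAD, a pro-apoptotic BCL2 relative, fell (−1.05 and −1.02). FOXO1 had 40.7 to 44.6 normalized counts in DMSO libraries, 78.0 to 111 with JQ1 and 79.7 to 94.5 with I-BET 762. In the RAS arm, 0 of 5 genes were called by limma with either inhibitor, against 36.1% and 26.9% of all genes. An adjusted p under 0.05 was reached by 4 of the 5 with each, against 10633 and 9073 of all 14839 genes. HRAS scattered from 1.0 to 91.5 normalized counts between libraries, from 3.87 to 73.7 within DMSO alone.

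**Figure D5:**
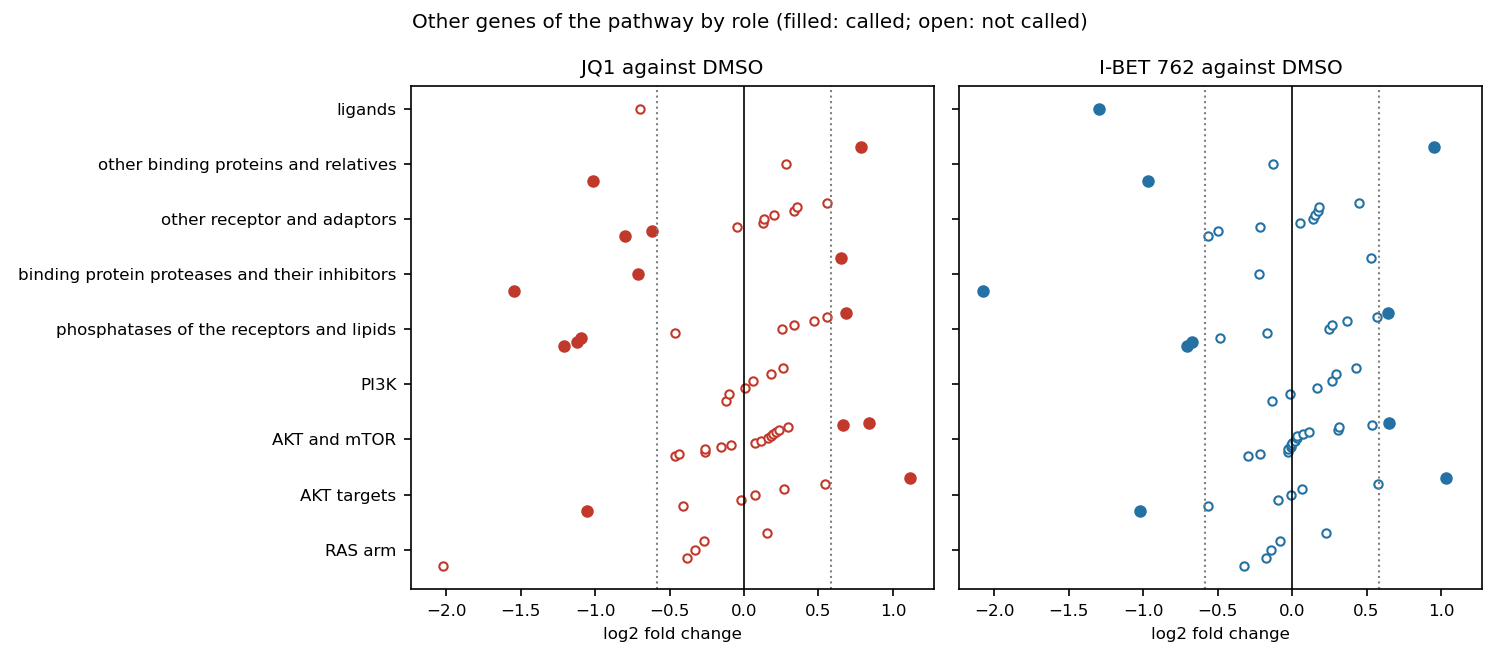
Log2 fold change against DMSO (x axis) of the 59 tested pathway genes outside the members, by role (y axis), with JQ1 on the left and I-BET 762 on the right. Each point is a gene, filled when called and open when not, and dotted lines mark the 1.5-fold limit; PI3K and RAS arm genes have open points only.

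Finally, the genes most like the extremes were sought by Pearson correlation of log2 values over the 10 libraries, which share the treatment groups. Nearest to IGFBP5, which had the largest fall, were RUNX1T1 (r = 0.994), SUSD5 (r = 0.993) and VPS36 (r = 0.993). The mean normalized count of RUNX1T1 was 330 with DMSO, 74.0 with JQ1 and 120 with I-BET 762, that of SUSD5 was 693, 310 and 386, and that of VPS36 was 1494, 860 and 1019. All 3 followed IGFBP5 in order across the groups but fell less in size. Nearest to IGFBP7, which by the smaller of its 2 changes had the largest rise among the members ranked, were CRYGS (r = 0.951), LMO2 (r = 0.951) and BMP6 (r = 0.949). BMP6, a bone morphogenetic protein, went from a mean of 2.48 normalized counts with DMSO to 22.5 with JQ1 and 9.59 with I-BET 762. BMP6 passed the filter on low values only through treated libraries, so its rise was a condition of being tested.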

How the data were processed

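The treatment label set the group of each SK-UT-1 RNA-seq library, and no replicate number (13 to 24) occurs in more than 1 group. Per the labels and methods, the authors assessed reads with FastQC 0.73, trimmed them with Trimmomatic, aligned them to hg38 with HISAT2 2.2.1, counted them on Gencode V41 genes with featureCounts 2.0.3, left out outlier samples and scaled the counts with DESeq2. The libraries were strand-specific, and the strand setting of the counting is not given in the sources used here. As deposited, each value is a log2 of the scaled count after adding 1. Undoing the log2 gave whole multiples of 1 read for 99.6% to 99.7% of values, and from these came the reads per library.

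Genes with at least 10 normalized counts in at least 3 libraries entered a limma 3.58.1 model (R 4.3.3) of all 10 libraries with an intensity trend and 3 contrasts with Benjamini-Hochberg adjustment over the 14839 genes. The code was tested on simulated data. Tables and figures were made with Python 3.11.15, pandas 2.3.3 and matplotlib 3.10.9. The 10 members and all lists were chosen with earlier results of these data known. All members were named, as were the other pathway genes called with at least 1 inhibitor, the nearest tested gene on each side of each member, and the 3 genes most correlated with the members of largest rise and fall. Some listed pathway genes are not reported here by name. Positions, overlaps and exon lengths come from Gencode V44 (hg38), in which 94.8% of the symbols matched 1 gene, and promoter sequences from RefSeq on GRCh38.p14, which held an entry for 9 members but not IGFBP7. Within groups, 0 of 12 library pairs were identical, and each differed by more than counting error (chi-square per gene 2.68 to 20.6). Alternatives were pseudocounts of 0.5 and 5, other filters on low values, equal totals or upper quartiles, no trend, only the 2 groups compared, other fold thresholds, limma-voom on the recovered reads, and leaving out each library in turn.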

Additional observations from a re-analysis of the deposited data

How the results depend on the processing

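Over 621 alternative values of the 30 member results, 600 kept their direction and side of the threshold, 9 lost a call, 8 gained one and 4 changed sign without being called. The sign changes were IRS2 with JQ1 (0.054 without JQ1 replicate 18 and 0.034 without JQ1 replicate 20, in a leave-one-out range of −0.197 to 0.054), IRS2 with I-BET 762 (−0.037 at equal totals) and IGF2R in the direct comparison (−0.031 at equal totals). Leaving out 1 library gave 1904 to 2006 genes higher and 3058 to 3388 lower with JQ1, with 3 and 5 members in each run. It gave 1276 to 1336 and 2314 to 2682 with I-BET 762, with 2 to 3 and 4 members, and 197 to 315 and 406 to 583 in the direct comparison, with 0 to 1 and 1 members. With JQ1, no threshold on size called 5344 genes higher and 5289 lower, a fold change over 2 called 793 and 2165, with 3 members lower, a mean of at least 100 normalized counts left 1914 lower, with 1 member higher, and equal totals left 1222 higher. With I-BET 762 these were 4434 and 4639 with no size threshold, 529 and 1579 over 2-fold, with 1 member higher and 2 lower, and 1447 lower at a mean of 100, with 1 member higher. In the direct comparison they were 1973 and 2074 with no size threshold, with 2 members higher and 3 lower, 71 and 135 over 2-fold, and 154 and 264 at a mean of 100. IGF1R, IRS1 and IGFBP7 were below that mean and had no value there, so fewer members were tested. Depth limits IGFBP7, IGF1R and IGF2, with under 70 reads in every library. No paired analysis was possible because the groups share 0 replicate numbers.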

Other observations

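Tensin genes beside the binding proteins were looked up once TNS1, TNS3 and TNS4 had come out as neighbors, so the choice followed their values. TNS2 lies 33.1 kb from IGFBP6 on chromosome 12 (53046969 to 53064379). It had 203 to 261 normalized counts with DMSO, 110 to 158 with JQ1 and 181 to 191 with I-BET 762. TNS2 was called lower with JQ1 (log2 fold change −0.79, SE 0.14, adjusted p = 8.46e-05) and not with I-BET 762 (−0.28, adjusted p = 0.111), while IGFBP6 was called in neither comparison. In the direct comparison TNS1 (−1.25, adjusted p = 2.86e-05) and TNS3 (−1.24, adjusted p = 4.25e-08) were called lower with JQ1 than with I-BET 762, and TNS2 had −0.51 (adjusted p = 0.0122), under the 1.5-fold limit.

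Of 26 genes named with their JQ1 values, 0 had 1 of the 4 JQ1 libraries far from the other 3 by Dixon's criterion. With 4 values this criterion flags only a very wide gap, so the result does not show that no library stood apart. INSR, for example, had 800 normalized counts in JQ1 replicate 18 against 961 to 1003 in the other 3. The IRS2 values fell as 2 high and 2 low libraries.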
